A study of Mus musculus with 10 samples.

Results

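Acod1, Nos2, Arg1, Arg2, Slc7a2, Ass1, Asl and Odc1 encode a group of enzymes, and 1 transporter, through which activated macrophages and neutrophils make itaconate, nitric oxide, ornithine and polyamines. The 8 genes were taken by name from the 34745 genes of the deposited table, where Acod1 appears under its older name Irg1, and all 8 were found and passed the filter on low counts. Messenger RNA came from mouse peritoneal lavage cells, the leukocytes and shed lining cells washed from the abdominal cavity, and all mice had polymicrobial sepsis from cecal ligation and puncture. The labels hold 5 libraries named AX and 5 named NC. Since the series compares amlexanox, an inhibitor of the kinases TBK1 and IKKε, with vehicle, AX is taken here for amlexanox and NC for vehicle; the labels leave both abbreviations unexplained. The sources used here give no strain, age, dose or time after surgery. They do not say either whether each library is a separate animal, so p-values measure the spread between libraries, which may be technical.

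Arginine is the branch point of this network. Inducible nitric oxide synthase, encoded by Nos2, turns it into nitric oxide and citrulline, whereas the arginases turn it into ornithine and urea, and ornithine decarboxylase starts the synthesis of polyamines from ornithine. Cells take arginine up through cationic transporters and can rebuild it from citrulline with argininosuccinate synthase and lyase. Itaconate is made by Acod1 from the citric acid cycle intermediate cis-aconitate; it inhibits succinate dehydrogenase and activates the antioxidant factor NRF2. Nos2 and Acod1 are classic genes of macrophages exposed to bacterial products, and Arg1 is a classic gene of alternatively activated and of immature myeloid cells.

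RefSeq promoter sequence was matched for 3 of the 8 members, Acod1, Ass1 and Odc1, and is shown for these. No promoter sequence was matched for Nos2, Arg1, Arg2, Slc7a2 and Asl. The stretches run on the plus strand of GRCm38.p6 up to the base before the earliest annotated start in RefSeq or GENCODE M21. They cover chr14:103046762-103046976 for Acod1, chr2:31470020-31470206 for Ass1 and chr12:17544623-17544793 for Odc1. Capitals mark motif matches on either strand.
Acod1: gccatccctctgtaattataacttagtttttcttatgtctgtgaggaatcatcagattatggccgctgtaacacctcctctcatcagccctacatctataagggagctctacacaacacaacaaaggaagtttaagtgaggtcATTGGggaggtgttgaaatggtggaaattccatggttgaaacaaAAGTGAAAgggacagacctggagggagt
Ass1: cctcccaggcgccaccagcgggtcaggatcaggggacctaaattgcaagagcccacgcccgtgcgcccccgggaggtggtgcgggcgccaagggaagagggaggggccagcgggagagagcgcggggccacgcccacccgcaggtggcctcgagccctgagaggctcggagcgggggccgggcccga
Odc1: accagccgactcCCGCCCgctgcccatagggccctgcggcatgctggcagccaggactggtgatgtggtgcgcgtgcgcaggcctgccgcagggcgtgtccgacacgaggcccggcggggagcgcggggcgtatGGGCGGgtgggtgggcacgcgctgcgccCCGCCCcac

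The Acod1 stretch of 215 bases held 1 match to the interferon regulatory factor motif AANNGAAA, which 18.9% of 32851 RefSeq promoter windows cut to that length hold, and 1 match to the CCAAT box in reverse, which 30.4% hold. The Odc1 stretch of 171 bases held 3 matches to the GC box GGGCGG, present in 19.6% of windows of that length. Both strands were also searched for the TATA box TATAAA, the AP-1 site TGANTCA, the cyclic AMP element TGACG, the STAT site TTCNNNGAA, the C/EBP site TTGCNNAA, the E-box CACGTG and the NF-κB consensus. No match to any of these 10 motifs was found in the 187 bases of Ass1. The RefSeq starts lie downstream of the stretches, at 103047012 for Acod1, 31470270 for Ass1 and 17544873 for Odc1. The bases between were not searched, and the comparison windows were likewise cut to their first bases. The matches describe letters only, since binding was not measured.

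Libraries held between 10221170 counts (NC 1) and 13806885 counts (NC 2). Levels below are counts scaled to the library total (CPM), and levels between genes are compared only per length, as the FPKM values of the deposited table. The leukocyte gene Ptprc and all 11 neutrophil and 8 large macrophage markers were detected. Summed neutrophil markers ranged from 7140 to 16084 CPM in AX and from 9890 to 20216 CPM in NC. Tissue transcripts were most abundant in AX 6 and NC 1, where the summed 8 mesothelial markers reached 2250 CPM in AX 6 and 1201 CPM in NC 1, against 107 to 370 CPM in the other 8 libraries. Ptprc stood at 19.4 CPM in AX 8 and at 341 to 1138 CPM elsewhere, so that single genes can be nearly missing from single libraries. In bulk RNA, fewer cells of a type and less RNA per cell cannot be told apart.

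No member differed between AX and NC beyond the spread of the libraries. edgeR's quasi-likelihood test was fitted on 12264 genes. After Benjamini-Hochberg adjustment 0 of the 8 members stood under 0.05, as did 0% of all genes, and the adjusted p of each member rounded to 1. At an unadjusted p under 0.05 stood 0 of 8 members, where the share of all genes was 0.921%. DESeq2 and limma-voom called 0 members as well. The groups overlapped for all 8, and the share of all genes whose groups did not overlap was 0.139%. Fitted values were higher in AX for 3 members and lower for 5, where 46.4% of all genes were lower, with a median log2 fold change of -0.03, beside 0.02 for all genes tested.

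**Figure D1:**
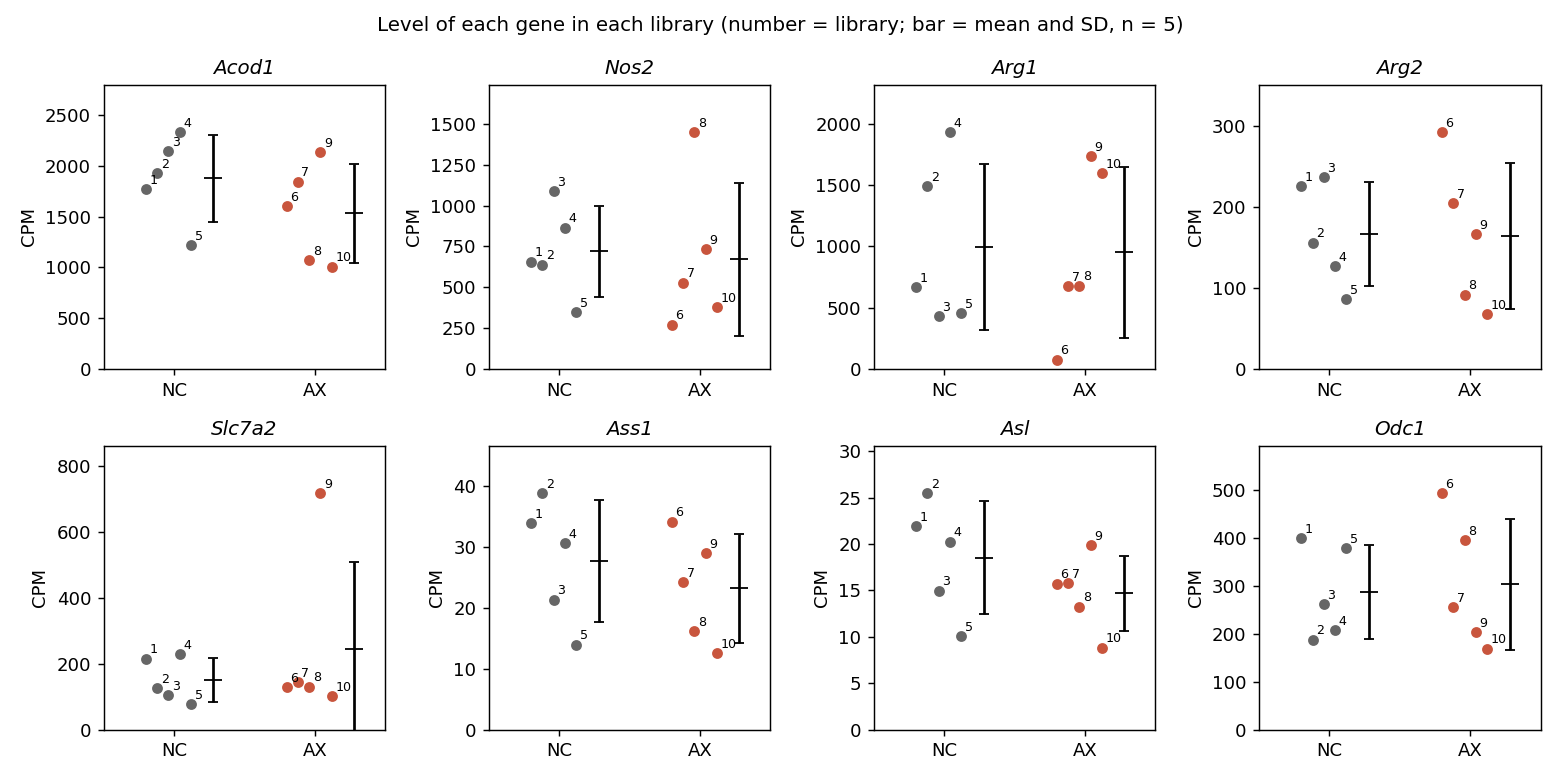
Level of each of the 8 genes in each library, in CPM on a linear axis from 0 (grey: NC, red: AX, the number is the library; bars: mean and SD, n = 5). The groups overlap for every gene; Arg1 has its lowest value in AX 6 (75.4 CPM) and Slc7a2 its highest in AX 9 (719 CPM).

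**Figure D2:**
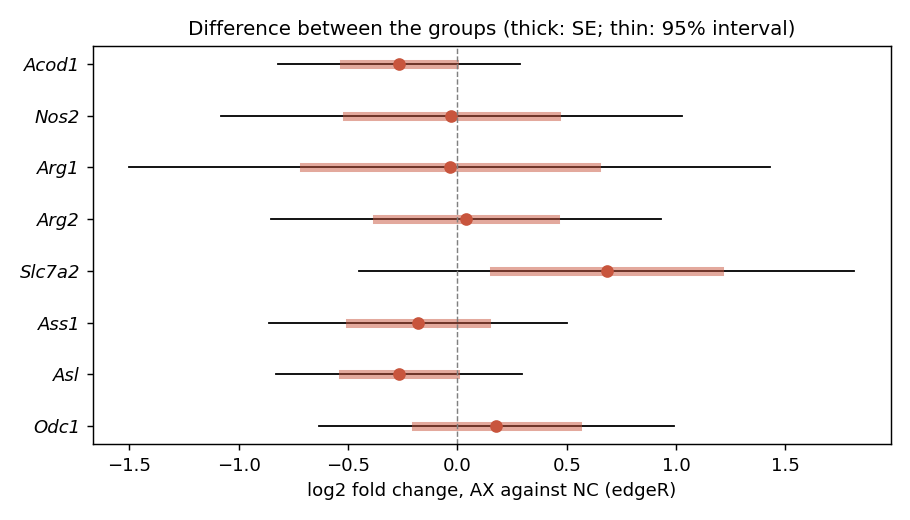
Log2 fold change of each gene, AX against NC, from edgeR (point: estimate, thick bar: standard error, thin bar: 95% interval). All 8 intervals cover 0; that of Arg1 is the widest (-1.50 to 1.43) and those of Acod1 and Asl are the narrowest.

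Acod1, which makes itaconate, was among the most abundant transcripts of the lavage and differed least of the 8 members between its highest and lowest library, by 2.31-fold. Its mean FPKM of 650 ± 179 (SD over 10 libraries) ranked 68 among the 12264 genes tested. The 5 NC libraries held 1767, 1924, 2145, 2330 and 1219 CPM in the order NC 1 to NC 5. The AX libraries held 1605, 1843, 1068, 2134 and 1007 CPM in the order AX 6 to AX 10. NC 5, AX 8 and AX 10 were low and the other 7 libraries lay between 1605 and 2330 CPM, so the low values came from both groups. The mean was 1531 ± 489 CPM in AX and 1877 ± 426 CPM in NC (SD, n = 5 each). The log2 fold change was -0.27 ± 0.25 (SE) with a 95% interval from -0.82 to 0.29, which covers folds from 0.566 to 1.22. Across all 21 alternative settings the fitted value stayed lower in AX and did not pass, with adjusted p from 0.999 to 1. The gene (ENSMUSG00000022126) lies on chromosome 14 from 103046977 to 103056573 of mm10.

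Nos2, the inducible nitric oxide synthase of phagocytes, was abundant in every library and differed 5.35-fold between the highest and the lowest. NC 1 to NC 5 held 657, 639, 1090, 865 and 346 CPM. AX 6 to AX 10 held 271, 528, 1450, 734 and 379 CPM, so that AX contained both the lowest and the highest library of the series. Means were 672 ± 468 CPM in AX and 720 ± 278 CPM in NC. The log2 fold change was -0.03 ± 0.48 (SE), with an interval from -1.08 to 1.03. It turned to 0.24 without NC 3, 0.06 without NC 4, 0.17 without AX 6, 0.07 without AX 7 and 0.12 without AX 10, and to -0.63 without AX 8. Of 368 genes of like level (mean log2 CPM within 1), 10.6% had a larger SD within the groups than Nos2. Nos2 (ENSMUSG00000020826) lies on chromosome 11 from 78920787 to 78960254.

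Nos2 was the only nitric oxide synthase gene with more than trace counts. Nos1 and Nos3, the neuronal and endothelial isoforms, stood with mean levels of 0 and 0.394 CPM (AX) and 0.0173 and 0.304 CPM (NC), and neither passed the filter on low counts. Gch1 encodes the first enzyme on the way to tetrahydrobiopterin, a cofactor that nitric oxide synthases need. It averaged 73.0 ± 35.5 CPM (AX) and 70.2 ± 19.3 CPM (NC), with 0.15 ± 0.31 (SE) as log2 fold change.

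Arg1, the cytosolic arginase, was as abundant as Acod1 by the deposited FPKM and had the largest spread of the 8 genes on the log2 scale. With GENCODE gene lengths Acod1 was above Arg1 in 9 of 10 libraries, all but AX 10. NC 1 to NC 5 held 664, 1489, 430, 1930 and 454 CPM. AX 6 to AX 10 held 75.4, 676, 678, 1736 and 1597 CPM. The 10 values left a gap: NC 2, NC 4, AX 9 and AX 10 lay between 1489 and 1930 CPM, and the other 6 libraries, 3 from each group, between 75.4 and 678 CPM. The highest library held 25.6 times the level of the lowest. Of 315 genes of like level, 1.90% had a larger SD within the groups, which was 1.41 on the log2 CPM scale for Arg1 against a median of 0.41 for those genes. Means were 952 ± 698 CPM in AX and 993 ± 678 CPM in NC, and the log2 fold change of -0.03 ± 0.67 (SE) has an interval from -1.50 to 1.43. Folds from 0.353 to 2.70 are therefore not distinguished by these libraries.

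Arg1 in AX 6, at 75.4 CPM, was under the larger group median by a factor of 8 or more. In that library the same held for 0.8% of the 5873 genes whose larger group median reached 20 CPM. AX 6 was also the library with the most mesothelial, stromal and erythroid marker counts; the part of these in the Arg1 value was not tested. Without AX 6 the log2 fold change of Arg1 was 0.26, and without NC 4 it was 0.40. It was 0.10 without NC 2, 0.07 without AX 7, 0.04 without AX 8 and 0.13 without both NC 1 and AX 6, and it was -0.29 without AX 9 and -0.34 without AX 10. Arg1 (ENSMUSG00000019987) spans 24915208 to 24927470 on the minus strand of chromosome 10 in the deposited table, a span that differs slightly from GENCODE M21.

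Arg2, the mitochondrial arginase, was lower than Arg1 per length in all libraries but AX 6. NC 1 to NC 5 held 226, 156, 237, 127 and 86.4 CPM, and AX 6 to AX 10 held 292, 205, 91.5, 166 and 67.6 CPM. Its highest library, AX 6, was the lowest for Arg1, and its lowest, AX 10, was among the 4 highest for Arg1. Over 10 libraries Pearson's r of log2 CPM of Arg1 with Arg2 was -0.66 and did not pass (permutation adjusted p = 0.135 over 28 pairs of members). That r was -0.84 within AX, -0.26 within NC and -0.36 without NC 1 and AX 6. By FPKM the Arg1 to Arg2 ratio was 0.2499 in AX 6, between 1.76 and 14.7 in NC and between 3.20 and 22.8 in the other AX libraries. The log2 fold change of Arg2 was 0.04 ± 0.41 (SE), with an interval from -0.85 to 0.93, and turned to -0.33 without AX 6. It was also slightly below 0 without NC 2, NC 4, NC 5 or AX 7 (-0.02, -0.05, -0.12 and -0.03). Arg2 (ENSMUSG00000021125, chromosome 12 from 79130777 to 79156301) overlaps Vti1b on the other strand over 285 bases, and no source used here says whether counting kept the strands apart.

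The ratio of Arg1 to Nos2 transcript differed widely between libraries of each group. The FPKM ratio of Arg1 to Nos2 was 0.791 in AX 6, 1.12 in NC 3 and 1.33 in AX 8, and between 2.87 and 11.98 in the other 7 libraries. The AX median was 3.64 and the NC median 3.73; a difference between the groups was not tested. These ratios rest on the gene length in the deposited FPKM, which is 1476 bases for Arg1 where the exons of GENCODE M21 add to 2228. With GENCODE lengths Nos2 exceeded Arg1 in 3 libraries, NC 3, AX 6 and AX 8.

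Slc7a2, which encodes the cationic amino acid transporter CAT2 that supplies arginine to activated macrophages, stood apart in a single library. NC 1 to NC 5 held 215, 126, 104, 229 and 77.9 CPM. AX 6, AX 7, AX 8 and AX 10 held 129, 145, 130 and 102 CPM, within the range of NC, and AX 9 held 719 CPM. That is more than 3 times every other library. Slc7a2 was 1 of 5 genes at 3 times or more, among the 5973 with at least 20 CPM in AX 9. The log2 fold change of 0.68 ± 0.51 (SE), with an interval from -0.45 to 1.82, was the largest of the 8. It turned to -0.13 without AX 9, so the higher AX mean of 245 ± 265 CPM against 150 ± 67.7 CPM in NC rests on that library. Summed large macrophage markers were also highest in AX 9, at 319 CPM against 64.2 to 188 CPM elsewhere. So were summed B cell markers (58.5 CPM, next 49.3 CPM in NC 2) and mast cell markers (29.1 CPM, next 23.8 CPM in NC 1). The part of any of these in the Slc7a2 value was not tested. Of the 8 large macrophage markers, Prg4 (130 CPM), Fcna (37.8 CPM) and Alox15 (21.6 CPM) peaked in AX 9. In contrast, Gata6 was highest in AX 6 (76.4 CPM, 21.9 CPM in AX 9) and Adgre1 in NC 2 (133 CPM, 98.8 CPM in AX 9). Garnl3 was also highest in AX 6 (1.34 CPM), Icam2 in NC 2 (4.64 CPM) and Timd4 in NC 4 (6.40 CPM). Timd4, a defining gene of resident macrophages, was low throughout, at 2.03 to 6.40 CPM. Slc7a1, the constitutive arginine transporter CAT1, averaged 101 ± 63.5 CPM (AX) and 84.4 ± 24.2 CPM (NC). Slc7a2 (ENSMUSG00000031596) lies on chromosome 8 from 40862396 to 40922308.

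Ass1 and Asl, the consecutive enzymes that rebuild arginine from citrulline, were among the 3 lowest members per length and rose and fell together from library to library. Ass1 stood at 33.9, 38.8, 21.3, 30.6 and 13.97 CPM in NC 1 to NC 5 and at 34.1, 24.2, 16.2, 28.9 and 12.5 CPM in AX 6 to AX 10. Asl stood at 21.9, 25.5, 14.98, 20.2 and 10.1 CPM in NC 1 to NC 5 and at 15.7, 15.8, 13.3, 19.9 and 8.84 CPM in AX 6 to AX 10. For both genes NC 2 was the highest library and AX 10 the lowest, with NC 5 next to it. The FPKM ratio of Ass1 to Asl stayed between 3.12 and 3.47 in the 5 NC libraries and between 2.74 and 4.87 in AX, with the highest ratio in AX 6. Ass1 gave a log2 fold change of -0.18 ± 0.31 (SE) and Asl of -0.27 ± 0.26 (SE), with intervals from -0.86 to 0.50 and from -0.83 to 0.30. Both fitted values stayed lower in AX in all 21 alternatives, and neither passed in any. Ass1 (ENSMUSG00000076441) lies on chromosome 2 from 31470207 to 31520672, and Asl (ENSMUSG00000025533) on chromosome 5 from 130011258 to 130029247.

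Of the 28 pairs of members 2 passed by Pearson's r, Ass1 with Asl and Arg1 with Odc1, and 0 by Spearman's rho. For Ass1 and Asl, r of log2 CPM over 10 libraries was 0.92 (permutation p = 0.00034, adjusted p = 0.00952) and rho was 0.87 (permutation p = 0.00196, adjusted p = 0.0549). It was 0.86 within AX and 0.998 within NC (n = 5 each), and 0.73 without NC 5 and AX 10 (exact permutation p = 0.0430). Leaving out AX 10 alone ended the call, with r = 0.87 and adjusted p = 0.0645 by exact permutation. The next pairs without Arg1 were Arg2 with Ass1 (r = 0.74, adjusted p = 0.131) and Acod1 with Asl (r = 0.72, adjusted p = 0.131), both by permutation. Libraries share their cell mixture and composition across genes, so a common course says nothing of shared control.

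Odc1, the first enzyme of polyamine synthesis, took a different course. NC 1 to NC 5 held 400, 188, 261, 207 and 379 CPM, and AX 6 to AX 10 held 493.4, 255, 395, 203 and 169 CPM. The highest libraries came from both groups, and the means were 303 ± 137 CPM in AX and 287 ± 97.4 CPM in NC. The log2 fold change was 0.18 ± 0.37 (SE), with an interval from -0.63 to 0.99, and turned to -0.10 without AX 6 and -0.0030 without AX 8. Odc1 (ENSMUSG00000011179) spans 17544873 to 17551502 on chromosome 12 in the deposited table.

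The 4 libraries with the lowest Odc1 were the 4 with the highest Arg1, 2 from each group. Odc1 was 169 to 207 CPM in NC 2, NC 4, AX 9 and AX 10 and 255 to 493.4 CPM in the other 6. Adgre1, which encodes the macrophage surface protein F4/80, was highest in the same 4 libraries, at 98.8 to 133 CPM against 21.4 to 51.7 CPM. This split was not particular to Adgre1 or to large macrophage markers. The neutrophil gene Mmp9 held 260 to 532 CPM in these 4 and at most 187 CPM elsewhere. Ccr2, F13a1 and Alox15 were also highest there. Gata6, another large macrophage marker, was highest in AX 6 (76.4 CPM) and held 7.46 to 21.9 CPM in these 4. Over 10 libraries Pearson's r of Arg1 with Odc1 was -0.82 (permutation p = 0.00177, adjusted p = 0.0248 over 28 pairs of members). Spearman's rho was -0.76 (permutation p = 0.0151, adjusted p = 0.212). The r was -0.82 within AX and -0.83 within NC (n = 5 each), and -0.78 without AX 6 and NC 4 (exact permutation p = 0.0338). On leaving out 1 library each it ran from -0.91 to -0.76, and the call was lost without AX 6 (adjusted p = 0.164 by exact permutation), AX 9 (0.0693) and AX 10 (0.0739). With Adgre1, r of Arg1 was 0.88 (permutation p = 0.00025, adjusted p = 0.035 over 280 relations of members with markers) and rho was 0.84 (permutation p = 0.00401, adjusted p = 0.14). It was 0.93 within AX and 0.92 within NC, and 0.83 without AX 10 and NC 4. Its r stayed at 0.85 or more on leaving out any 1 library, and the call was kept only without NC 1 or NC 5. On the log2 CPM scale used for r, Arg1 lay between 10.4 and 10.9 in the 4 high libraries and between 6.37 and 9.61 in the other 6. AX 6, at 6.37, stood farthest apart, with NC 5 next at 8.88. These r values therefore rest in part on the 4 high libraries against the other 6, and AX 6 can weigh on them. Without AX 6, r of Arg1 was -0.76 with Odc1 and 0.92 with Adgre1. Over the 7 large macrophage markers compared, r with Arg1 ran from -0.70 (Gata6) to 0.88 (Adgre1), and 1 passed. The value for Gata6 rested on AX 6 and NC 1, and was -0.10 without them. Over 11 neutrophil markers r with Arg1 ran from -0.71 to 0.78, and over 9 small macrophage and monocyte markers from -0.54 to 0.80. Of these, 0 passed.

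**Figure D3:**
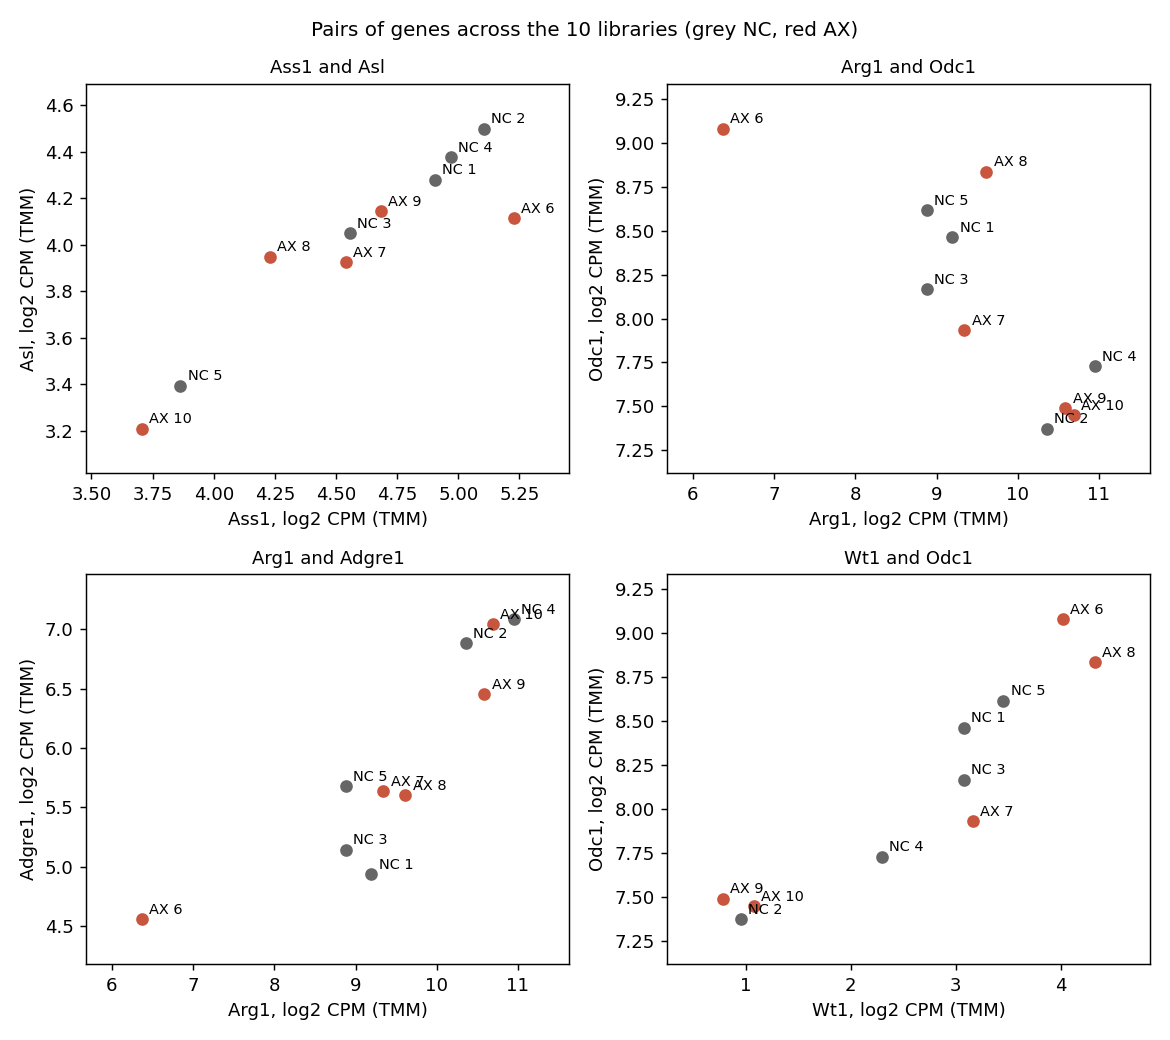
Log2 CPM (TMM-scaled) of 4 pairs of genes, 1 point per library (grey: NC, red: AX). Ass1 and Asl lie along a line with AX 6 beside it; Arg1 and Odc1, and Arg1 and Adgre1, separate NC 2, NC 4, AX 9 and AX 10 from the other 6 libraries; Odc1 is high where the mesothelial gene Wt1 is high.

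The 280 relations set the 8 members beside 35 markers of neutrophils, macrophages, monocytes and mesothelial cells, and 2 passed by Pearson's r and 0 by Spearman's rho. Beside Arg1 with Adgre1 this was Odc1 with Wt1, a transcription factor of the mesothelium: r = 0.93 (permutation p = 0.00014, adjusted p = 0.035) and rho = 0.92 (permutation p = 0.00051, adjusted p = 0.0714). It was 0.91 without the 2 libraries farthest from the median of Wt1. All 8 mesothelial markers had a positive r with Odc1, from 0.52 to 0.93, and from 0.07 to 0.91 without the 2 libraries farthest from each marker's median. The r of Arg2 with the same 8 markers was positive too, from 0.36 to 0.82, and that of Arg1 was negative, from -0.94 to -0.60. Of these, 0 passed. Without the 2 libraries farthest from each marker's median, r ran from 0.46 to 0.78 for Arg2 and from -0.76 to 0.06 for Arg1. For Arg1, the values with Krt8 (0.06) and Krt19 (0.02) were then no longer negative. The call of Odc1 with Wt1 was lost on leaving out NC 2 (adjusted p = 0.0621 by exact permutation), NC 3 (0.0685), NC 4 (0.0882), AX 8 (0.0725), AX 9 (0.0509) and AX 10 (0.0679), each alone, although r stayed at 0.91 or more. Wt1 itself was low, lowest in AX 9 (1.85 CPM) and highest in AX 8 (17.2 CPM). In AX 8 the summed 8 mesothelial markers stood at 224 CPM, against 2250 CPM in AX 6, where Wt1 was 14.7 CPM. NC 5 held more Wt1 than NC 1 (10.5 against 9.49 CPM), with summed markers of 148 against 1201 CPM.

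Per length, the members fell into 4 levels. Arg1 (659 ± 440 FPKM, SD over 10 libraries) and Acod1 (650 ± 179 FPKM) led, and each was above the other in 5 of 10 libraries. Nos2 (166 ± 86.7 FPKM), Arg2 (116 ± 51.8 FPKM) and Odc1 (116 ± 44.1 FPKM) followed; Nos2 was above Arg2 in 7 libraries and Arg2 above Odc1 in 7, so these neighbours did not differ beyond their spread. Acod1 exceeded Nos2, and Odc1 exceeded Slc7a2, in all 10. Slc7a2 (10.6 ± 10.2 FPKM) and Ass1 (8.60 ± 3.12 FPKM) changed places in 5 of 10 libraries, and Asl (2.50 ± 0.792 FPKM) was the lowest member in all. The deposited FPKM of Slc7a2 rests on a length of 18560 bases, against 9135 bases of exon in GENCODE M21. With GENCODE lengths Acod1 moved ahead of Arg1, at 650 ± 179 against 437 ± 291 CPM per kilobase, and was above it in 9 of 10 libraries. Slc7a2 had 21.6 ± 20.7 CPM per kilobase and was above Ass1 in 8 of 10; the rest of the order was unchanged.

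Genes of the surrounding pathways likewise showed no difference that passed. Of 67 listed genes 53 were tested, 20 with a higher and 33 with a lower fitted value in AX, and 0 passed, with 0 at an unadjusted p under 0.05. Their median log2 fold change was -0.05, beside 0.02 for all genes.

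For polyamines, 4 of 13 tested genes were higher and 9 lower in AX (median log2 fold change -0.10). Eif5a, the translation factor that carries the polyamine-derived residue hypusine, was the most abundant by FPKM, with 579 ± 120 CPM (AX) and 597 ± 34.7 CPM (NC). Oaz2, an antizyme, a protein that inhibits ornithine decarboxylase and sends it for degradation, had the smallest p of the list, with 45.2 ± 15.9 against 34.3 ± 8.67 CPM and a log2 fold change of 0.45 ± 0.27 (SE). The antizyme Oaz1 and the antizyme inhibitor Azin1 had log2 fold changes of -0.09 ± 0.22 and -0.08 ± 0.29 (SE). Sat1, which acetylates polyamines for export, stood at 375 ± 150 against 317 ± 86.3 CPM.

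Among 12 tested genes around itaconate, 2 were higher and 10 lower (median -0.05). Sdhb, a subunit of the succinate dehydrogenase that itaconate inhibits, averaged 36.8 ± 13.6 CPM (AX) and 52.4 ± 17.1 CPM (NC); its log2 fold change was -0.43 ± 0.27 (SE). The other 3 subunits, Sdha, Sdhc and Sdhd, had log2 fold changes of -0.03, -0.07 and -0.04. Nfe2l2, which encodes NRF2, was the most abundant by FPKM and stood at 379 ± 121 against 385 ± 51.7 CPM.

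Of 9 tested genes of nitric oxide synthesis and sensing, 5 were higher and 4 lower (median 0.08). Qdpr, which regenerates tetrahydrobiopterin, had 22.2 ± 7.66 against 16.1 ± 12.3 CPM, a log2 fold change of 0.59 ± 0.43 (SE). Of 8 tested genes of arginine transport and use, 3 were higher and 5 lower (median -0.02). Slc3a2, the heavy chain shared by several amino acid transporters, was the most abundant of them by FPKM, at 259 ± 140 against 276 ± 81.1 CPM. The urea cycle enzymes Otc and Cps1 did not pass the filter on low counts, at mean levels of at most 0.0836 CPM in a group.

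Among 11 tested regulators, 6 were higher and 5 lower (median 0.01). Cebpb, a factor of myeloid activation known to act on Arg1, was the most abundant, with 2033 ± 547 CPM (AX) and 2186 ± 379 CPM (NC). Irf1, a factor known to induce Nos2, had the largest fold change of the list, -1.07 ± 0.82 (SE), with 36.8 ± 43.5 against 73.9 ± 71.9 CPM; an SD near the mean in both groups goes with that wide error. Ifng, the cytokine that primes macrophages for Nos2, did not pass the filter, with 0.969 CPM (AX) and 0.578 CPM (NC).

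**Figure D4:**
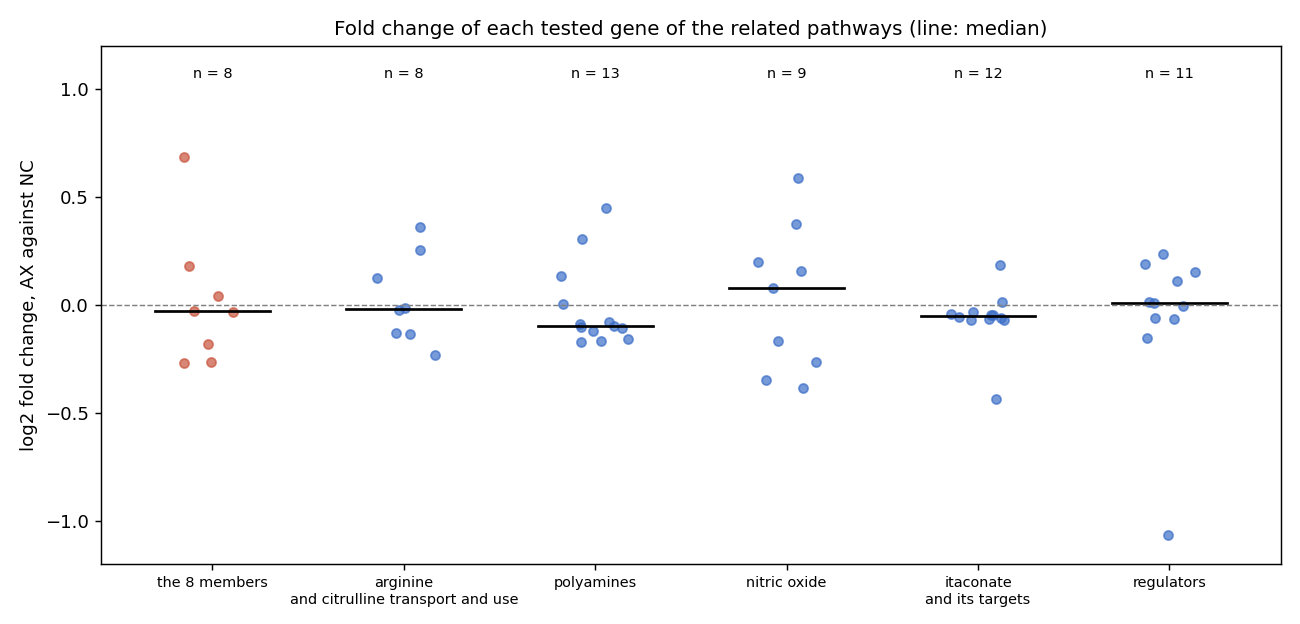
Log2 fold change, AX against NC (edgeR), of the 8 genes and of the tested genes of 5 related lists (line: median of the list, n: genes tested). None passed; medians lie between -0.10 and 0.08, and the lowest point is Irf1 at -1.07.

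Genes most like each member were ranked by r of log2 CPM over the 10 libraries among 7712 genes with a mean log2 CPM of at least 3, as a description of likeness. For Acod1 they were Socs3, a feedback inhibitor of cytokine signalling (r = 0.90, and 0.81 without AX 8 and AX 10), Tarm1 (0.89) and Sptlc2 (0.87). For Nos2 they were Ppp1r3b (0.93), Mthfsl (0.89) and Usp28 (0.87). For Slc7a2 the chemokine gene Pf4 came first (0.90), followed by Ctla2b (0.87) and Foxp1 (0.83). Without AX 9 and NC 5 these were 0.86, 0.47 and 0.31. For Ass1 they included Psmd14 (0.95) and Rassf1 (0.94), and for Asl they were Sqrdl, Glod4 and Dnttip1 (0.90, 0.89 and 0.89). Odc1 was most like Tceal8 (0.97), Fam204a (0.96) and Rbm7 (0.94), and Arg2 most like Ptpn23 (0.98), Chd2 (0.98) and Ndel1 (0.97). For Arg1 they were Ring1, Cfap97 and Phkb, with r of 0.98, 0.96 and 0.96, and of 0.93, 0.88 and 0.82 without AX 6 and NC 4. As the top of 7712 ranks over 10 points, such values carry no p.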

How the data were processed

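Polyadenylated RNA of 10 lavage samples was sequenced. HISAT2 2.0.4 and mm10 are named in the submitters' processing notes; no source used here names a counter, an annotation release or a strand setting. The authors deposited raw whole-number counts. The deposited FPKM values divide each count by a gene length and the library total. Counts were tested in R 4.3.3 with edgeR 4.0.16 (filterByExpr, TMM, two-sided quasi-likelihood test, Benjamini-Hochberg adjustment over 12264 genes, threshold 0.05). Each standard error was derived from the F statistic. Alternatives were DESeq2 1.42.0, limma 3.58.1 (voom with and without library weights, and log2(FPKM + 1)), exact permutation over 252 arrangements (smallest p 0.00794), other scalings and filters, and leaving out libraries. Correlations used log2 CPM with a prior count of 1 and 100000 permutations, or all permutations below 10 libraries, in Python 3.11.15 with scipy 1.17.1. They cover 28 pairs of members and, added after the data were seen, 280 relations with cell type markers. No 2 libraries agreed within counting error (lowest chi-square over its degrees of freedom, 41.8). The edgeR, DESeq2, voom and permutation fits were also run on simulated counts with known changes. Always named are the 8 members; beyond them up to 4 genes per list with the smallest p, the most abundant one by FPKM, Oaz1, Azin1, Gch1, Slc7a1 and Cebpb, and the 3 genes most alike in course (mean log2 CPM of at least 3, without predicted genes and receptor segments). Nos1, Nos3, Sdha, Sdhd, Otc, Cps1, Ifng, Rnf24 and the cell type markers were chosen after their values were seen. The members and lists were chosen with earlier results of these data known. One of the genes most like Ass1 is not reported here.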

Additional observations from a re-analysis of the deposited data

Results flagged for a closer look

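Slc7a2 in AX 9, at 719 CPM, lay far above the other 4 AX libraries, which held 102 to 145 CPM: the gap to the nearest of them was 93.2% of the whole range of AX, where Dixon's criterion for 5 samples is 0.71. This was 1 of 16 sets of 5 libraries examined. For normally distributed values chance alone marks about 1 set in 20. Whether that rate holds for these CPM values was not tested, and the 16 sets share the same libraries.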

How the results depend on the processing

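No member passed in any of the 21 alternatives. The direction held in 140 of 168 refits of a member and turned in 28. Leaving out 1 library each, log2 fold changes ran from -0.38 to -0.16 for Acod1, -0.63 to 0.24 for Nos2, -0.34 to 0.40 for Arg1, -0.33 to 0.27 for Arg2, -0.13 to 0.91 for Slc7a2, -0.41 to -0.03 for Ass1, -0.41 to -0.13 for Asl and -0.10 to 0.33 for Odc1. Without both NC 1 and AX 6 the values that turned were 0.10 for Nos2, 0.13 for Arg1, -0.25 for Arg2 and -0.0021 for Odc1. Arg1 turned to 0.0094 with no filter, Odc1 to -0.043 with library quality weights, and Arg2 to -0.057 with limma-voom, -0.056 with exact permutation, -0.017 with library totals and -0.11 with FPKM; the cause was not tested. The count over all genes ran from 0 to 1 on leaving out a library: without NC 3, Rnf24 passed (adjusted p = 0.0174 with edgeR). The pathway list gave 0 throughout. Passing pairs of members, 2 over all libraries, ran from 0 to 2 on leaving out a library and numbered 1 without NC 1 and AX 6. Passing relations with markers, 2 over all libraries, ran from 0 to 10 on leaving out a library (10 without NC 1, and 0 without NC 2, NC 3, NC 4, AX 8, AX 9 or AX 10), and were 6 with library totals, 6 with log2(FPKM + 1) and 6 without NC 1 and AX 6. No paired analysis was possible because the groups share no library numbers. With 5 libraries a group, the 95% interval of the AX to NC fold ran from 0.353 to 2.70 for Arg1 and from 0.566 to 1.22 for Acod1.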
